A study of Mus musculus with 8 samples.

Results

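AP-1 and immediate early transcription factors were described in MCa-P1362, a mouse mammary adenocarcinoma line that came from a tumour of a female Balb/c breeder. The set was taken by gene name and holds 10 of the 24421 genes in the files: the Fos family (Fos, Fosb, Fosl1, Fosl2), the Jun family (Jun, Junb, Jund), and Egr1, Atf3 and Ier2. All 10 passed the filter on low values, a level of 1 FPKM in 2 libraries. FPKM scales the fragments of a gene by its length and by the library's depth, so levels can be set side by side between genes. The cells were separated in a sorter by EpCAM, an epithelial surface protein, and each of 4 groups had 2 libraries: coculture EpCAM+, coculture EpCAM-, monoculture EpCAM+ and monoculture EpCAM-. No genotype or drug distinguished the groups, and all cells were kept in DMEM with serum. Sorted cells were either frozen at once or grown and passaged before freezing, and the labels do not tie these steps to the words coculture and monoculture, so handling and culture cannot be told apart. The labels do not say that the 2 libraries of a group came from separate cultures, so the p-values rest on a spread between libraries that may be technical only.

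AP-1 is a dimer of leucine zipper proteins. Jun proteins pair with each other or with Fos proteins, while Fos proteins need a Jun partner, and the dimers bind the TPA response element. Fos, Fosb, Jun, Junb, Egr1, Atf3 and Ier2 are immediate early genes: their transcription rises within minutes of growth factor, stress or mechanical signals, through kinases of the MAPK pathway acting on SRF, ELK and CREB proteins, and it falls again as quickly. Fosl1 and Fosl2 are slower members that AP-1 itself can induce, and Jund is expressed in resting cells. In mammary tumour cells FOSL1 is known for its place in mesenchymal and invasive states.

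The fractions matched their labels. The 7 epithelial markers summed to 8040 to 9106 FPKM in the EpCAM+ libraries and to 14.7 to 28.6 in the EpCAM- libraries. The 9 stromal markers summed to 12176.5 to 12475 FPKM in EpCAM-, to 207.6 to 209.5 in coculture EpCAM+ and to 16.9 to 17.2 in monoculture EpCAM+. By these markers, the coculture EpCAM+ libraries held 1.69% and 1.70% of EpCAM- levels, and the other 6 libraries between 0.127% and 0.292% of the opposite fraction. Leukocyte markers summed to at most 3.69 FPKM in any library, endothelial markers to at most 1.25, and Ptprc, the pan-leukocyte gene, reached at most 0.00552. The FPKM of a library summed to between 387489 and 414612. Depth in reads is unknown. The low values gave relative depths of 0.909 to 1.16, but the search covered near-equal depths only, so larger differences could not appear.

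Promoters of 7 of the 10 genes were in the RefSeq table for GRCm38.p6 (mm10), as windows from 250 bases before to 50 after the start of transcription. The search covered the CRE core TGACGT, which CREB and ATF proteins bind, its half-site TGACG, which the core contains, and the TPA response element TGACTCA, each on both strands. Among all 32851 windows of this length, 7.51% held the core, 20.8% the half-site and 5.2% the TPA response element. Of the 7 windows, Fos and Atf3 held the core, Fos, Fosb, Junb and Atf3 held the half-site, and none held TGACTCA. Only exact letters were searched, so variant forms of these elements were not counted. The windows of Fos, Fosb and Atf3 are shown because each of these genes was lower by 2-fold or more in monoculture than in coculture in a fraction. Capitals mark TGACG or, on the other strand, CGTCA.
Fos, chr12:85473640-85473939, plus strand: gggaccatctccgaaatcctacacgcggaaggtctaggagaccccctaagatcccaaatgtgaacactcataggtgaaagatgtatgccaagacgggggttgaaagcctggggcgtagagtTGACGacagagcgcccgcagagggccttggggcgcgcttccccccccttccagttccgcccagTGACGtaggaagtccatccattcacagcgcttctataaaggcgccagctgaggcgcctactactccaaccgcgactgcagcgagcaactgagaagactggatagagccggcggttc
Fosb, chr7:19309996-19310295, minus strand: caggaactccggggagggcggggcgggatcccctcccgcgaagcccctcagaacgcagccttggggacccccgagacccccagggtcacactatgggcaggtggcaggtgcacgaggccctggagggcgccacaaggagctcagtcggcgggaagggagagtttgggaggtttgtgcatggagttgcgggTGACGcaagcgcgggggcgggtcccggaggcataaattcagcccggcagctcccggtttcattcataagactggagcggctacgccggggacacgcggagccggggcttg
Atf3, chr1:191183284-191183583, minus strand: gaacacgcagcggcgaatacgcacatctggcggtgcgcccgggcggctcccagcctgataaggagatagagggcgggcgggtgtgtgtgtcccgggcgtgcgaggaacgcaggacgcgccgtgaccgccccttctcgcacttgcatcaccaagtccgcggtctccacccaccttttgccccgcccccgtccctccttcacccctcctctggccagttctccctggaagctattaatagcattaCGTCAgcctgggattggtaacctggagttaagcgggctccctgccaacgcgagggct
In Fos the core begins 66 bases before the start, ahead of the TATA box at 33 bases before it. In Fosb the half-site begins 60 bases before the start. In Atf3 the match lies on the opposite strand, 8 bases before a RefSeq start that is inside the longer gene model. The RefSeq starts of Fosb, Fosl2 and Junb also differ from their gene models, that of Fosb by a few bases. The Jund window ends before the Jund gene model begins, so it does not cover that start. A match describes letters in the window and not a bound site.

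Fos was the most abundant gene of the set in coculture EpCAM+ and Junb in monoculture EpCAM+. Fos (chromosome 12, 85473890 to 85477273), the prototype partner of Jun, read 249 and 247 FPKM in coculture EpCAM+ and 171 and 172 in coculture EpCAM-. In monoculture it read 124 and 122 in EpCAM+ and 152 and 149 in EpCAM-. The order of the fractions differed between the cultures: EpCAM+ was the higher in coculture and the lower in monoculture.

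Fosb (chromosome 7, 19302696 to 19310051), a close relative of Fos, read 87.5 and 87.7 FPKM in coculture EpCAM+ and 101 and 102 in coculture EpCAM-. It read 74.9 and 73.4 in monoculture EpCAM+ and 48.0 and 47.7 in monoculture EpCAM-. Monoculture EpCAM- was the low group, and the fractions stood in opposite order to those of Fos in both cultures.

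Fosl1 (chromosome 19, 5447547 to 5455946) encodes FRA-1. It read 10.2 and 9.88 FPKM in coculture EpCAM+ against 21.7 and 22.0 in coculture EpCAM-, 21.2 and 22.8 in monoculture EpCAM+ and 19.3 and 19.4 in monoculture EpCAM-. One group stood low: coculture EpCAM+, where Fos was highest. Coculture EpCAM- and monoculture EpCAM+ overlapped. Fosl1 overlaps Ccdc85b on the opposite strand, and whether reads were counted by strand is not given in the sources used here. Ccdc85b was lowest in coculture EpCAM+ too, at 5.39 ± 0.112 FPKM (SD, n = 2), and was 7.57 ± 0.556 in monoculture EpCAM+. In EpCAM- it was 9.65 ± 0.0706 in coculture and 14.0 ± 0.289 in monoculture. Its highest group was monoculture EpCAM-, which was not the highest of Fosl1. Whether reads of Ccdc85b entered the Fosl1 values was not tested. Fosl2, which encodes FRA-2, varied least: it lay between 14.8 and 15.0 in coculture EpCAM+ and between 17.5 and 19.5 in the other 6 libraries.

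Among the Jun genes, Jun (chromosome 4, 95049034 to 95052222), the main transactivating partner, read 77.9 and 78.5 FPKM in coculture EpCAM+ and 73.5 and 73.9 in coculture EpCAM-. It read 66.9 and 67.6 in monoculture EpCAM+ and 47.9 and 45.6 in monoculture EpCAM-, the low group. Junb, a weaker activator that can restrain Jun, read 199 and 201 in coculture EpCAM+, 162 and 165 in coculture EpCAM-, 219.5 and 219.9 in monoculture EpCAM+ and 133 and 125 in monoculture EpCAM-. Its gene model overlaps Prdx2 on the opposite strand, an abundant gene at 186 to 307 FPKM as group means. By these means its 4 groups stood in the same order as those of Junb. The EpCAM- means of Prdx2 were close, at 192 ± 2.65 in coculture and 186 ± 9.34 in monoculture (SD, n = 2). Whether reads of Prdx2 entered the Junb values was not tested. Jund (chromosome 8, 70698949 to 70700616), known for slowing growth in resting cells, read 152 and 146 in coculture EpCAM+ and 134 and 131 in monoculture EpCAM+. In EpCAM- it read 52.8 and 52.3 in coculture and 58.4 and 58.0 in monoculture, so all EpCAM+ libraries were above all EpCAM- libraries.

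Egr1, a zinc finger factor induced through SRF and ELK proteins, was the opposite case. It read 185 and 186 FPKM in coculture EpCAM- and 125 and 125 in monoculture EpCAM-, against 81.4 and 80.3 in coculture EpCAM+ and 47.9 and 48.8 in monoculture EpCAM+. Every EpCAM- library was above every EpCAM+ library. Atf3 (chromosome 1, 191170296 to 191218039), a stress-induced member of the ATF family that can pair with Jun, was the least abundant of the set in EpCAM-. It read 20.8 and 22.4 in coculture EpCAM+ and 10.9 and 11.6 in monoculture EpCAM+. In EpCAM- it read 4.51 and 5.01 in coculture and 1.04 and 0.964 in monoculture. Ier2 (chromosome 8, 84661331 to 84662852), an intronless immediate early gene, read 96.3 and 97.2 in coculture EpCAM+, 85.8 and 89.4 in monoculture EpCAM+, 79.4 and 75.9 in monoculture EpCAM- and 52.9 and 51.8 in coculture EpCAM-. Coculture EpCAM- was its low group. In these bulk libraries, fewer cells that express a gene and less RNA of it per cell cannot be told apart.

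**Figure D1:**
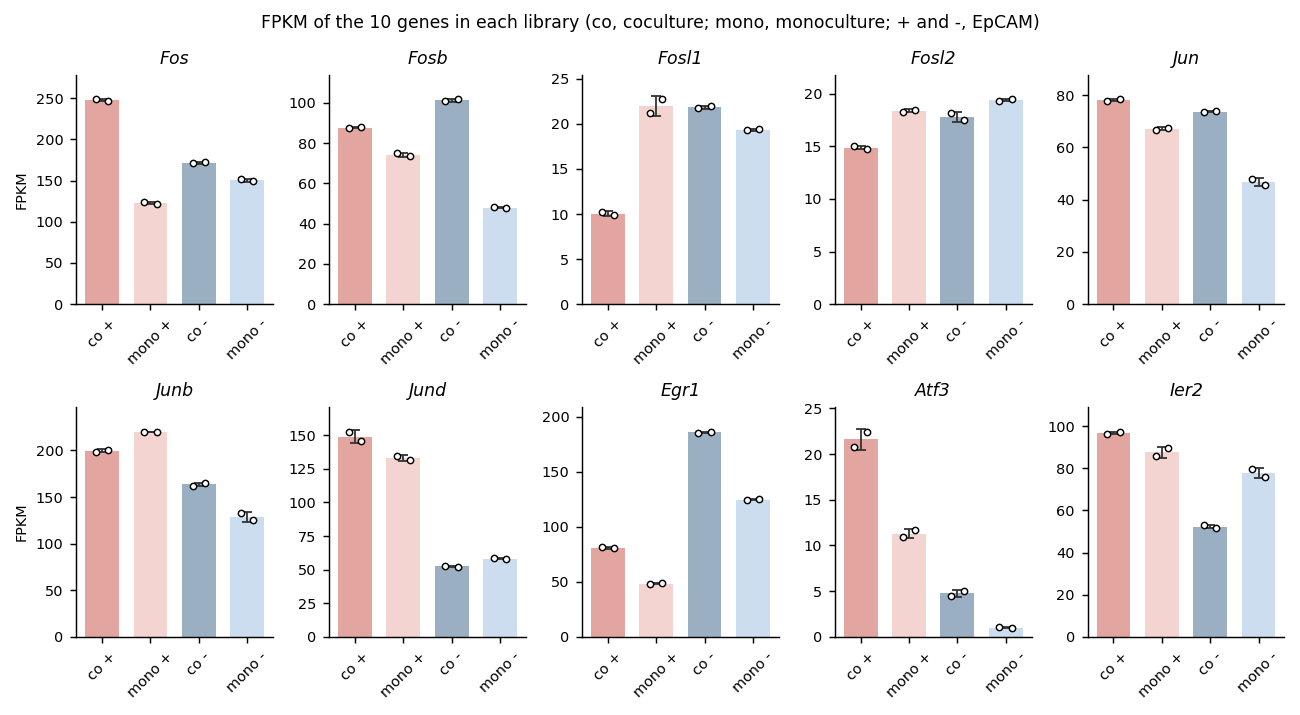
FPKM of each of the 10 genes (vertical axis, linear and from 0) in the 4 groups, with a circle per library, bars at the mean and error bars of 1 SD (n = 2). Fos is highest and Fosl1 lowest in coculture EpCAM+, Egr1 is higher in EpCAM- and Atf3 and Jund are higher in EpCAM+ in both cultures.

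The comparison of sorted fractions asks how EpCAM+ and EpCAM- cells differ. In both cultures EpCAM+ cells had more Atf3 and Jund and less Egr1. Atf3 was 4.54-fold higher in EpCAM+ of coculture (21.6 ± 1.15 against 4.76 ± 0.354 FPKM, SD, n = 2) and 11.2-fold higher in monoculture (11.3 ± 0.508 against 1.00 ± 0.0553). Its log2 fold changes on FPKM + 1, which understate those of low genes, were 1.97 (SE 0.06125, adjusted p = 1.49e-08, limma) and 2.62 (SE 0.06125, adjusted p = 2.46e-09). Jund was 2.84-fold and 2.28-fold higher, with log2 fold changes of 1.49 (SE 0.0265, adjusted p = 5.41e-10, limma) and 1.18 (SE 0.0265, adjusted p = 1.94e-09). Egr1 was 2.30-fold and 2.58-fold higher in EpCAM-, at log2 fold changes of -1.19 (SE 0.0195, adjusted p = 3.44e-10, limma) and -1.35 (SE 0.0195, adjusted p = 1.57e-10).

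Most genes of these libraries differ between the fractions, which sets what a count of calls can show. In coculture all 10 genes passed an adjusted p of 0.05, 6 higher and 4 lower in EpCAM+, where 87.2% of the 12012 genes tested passed (59.2% higher and 28.0% lower). At 2-fold or more 4 passed (Atf3 and Jund higher, Egr1 and Fosl1 lower), where 26.5% of all genes did (16.5% higher and 10.1% lower). In monoculture 9 passed, 7 higher and 2 lower, beside 87.9% of all genes (55.4% higher and 32.4% lower). At 2-fold or more 3 passed, 2 higher and 1 lower, beside 28.1% (15.5% higher and 12.6% lower), and Jund fell below 2-fold by the median of ratios, at 0.93. The median log2 fold change of the 10 genes was 0.19 in coculture and 0.35 in monoculture, against 0.26 and 0.23 for all genes tested. Scaling by the median of ratios moved the median of all genes by -0.26 and -0.22, so small differences are read relative to it.

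Fosl1 was 2.17-fold higher in EpCAM- of coculture (log2 fold change -1.05, SE 0.0384, adjusted p = 4.27e-08, limma). In monoculture its log2 fold change was 0.18 (SE 0.0384, adjusted p = 0.0027, limma), which no longer passed under the median of ratios (-0.06, adjusted p = 0.168) or quantiles (0.01, adjusted p = 0.727). Fos was 1.45-fold higher in EpCAM+ of coculture (0.53, SE 0.0196) and 1.23-fold lower in EpCAM+ of monoculture (-0.29, SE 0.0196). Fosb went the other way, at -0.21 in coculture and 0.62 in monoculture (SE 0.0203 for both). Fosl2 was -0.24 in coculture (SE 0.0306) and did not pass in monoculture, at -0.07 (SE 0.0306, adjusted p = 0.052, limma). It passed there under each of the 3 scalings tried, with values from -0.31 to -0.14, and with no filter.

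Junb was 1.22-fold higher in EpCAM+ of coculture (0.29, SE 0.0283) and 1.70-fold higher in monoculture (0.76, SE 0.0283). The coculture value was 0.00 under the median of ratios. Jun differed by 0.08 in coculture (SE 0.0266, adjusted p = 0.0169, limma), a direction that reversed under all 3 scalings and a call that was lost without any of 3 of the 4 coculture libraries (adjusted p from 0.0523 to 0.0732), and by 0.52 in monoculture (SE 0.0266). The median over chromosome 4, where Jun lies, was 0.55 in coculture and 0.52 in monoculture, so Jun stood below its chromosome's median in the one and at it in the other. Jund, Junb and Ier2 lie on chromosome 8, whose medians were 0.25 and 0.29. Ier2 was 1.85-fold higher in EpCAM+ of coculture (0.87, SE 0.0304) and 1.13-fold higher in monoculture (0.17, SE 0.0304). By the median of ratios the monoculture value of Ier2 reversed and still passed (-0.07, adjusted p = 0.0391, limma), and by quantiles it no longer passed (0.06, adjusted p = 0.0574).

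**Figure D2:**
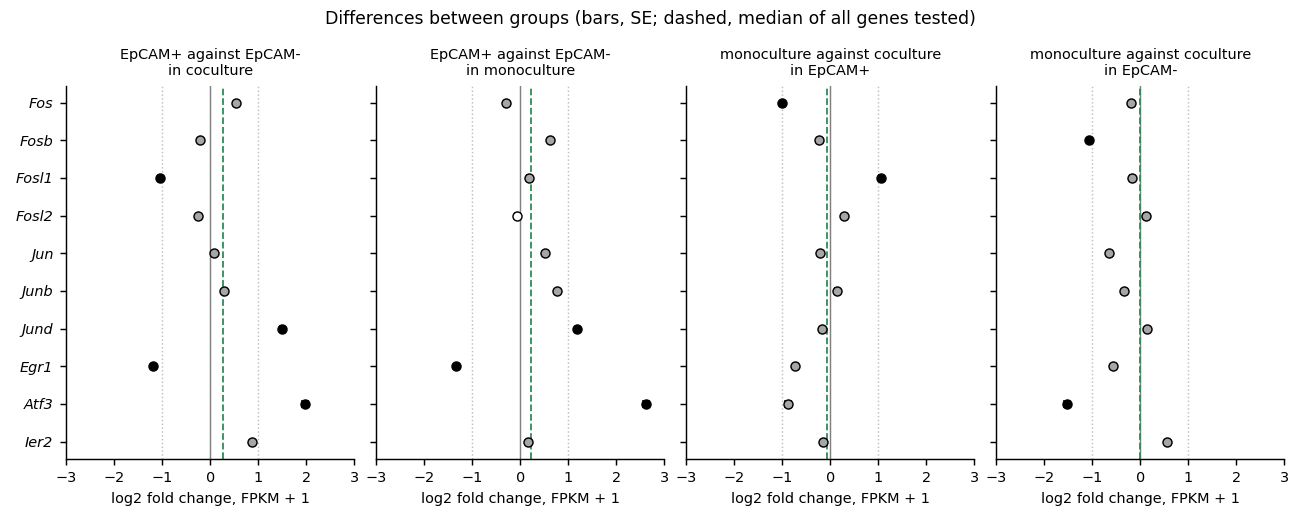
Log2 fold change of FPKM + 1 (horizontal axis) for each of the 10 genes in the 4 comparisons, with SE as bars that are mostly hidden by the points. Black marks genes called at 2-fold or more and grey marks genes called below 2-fold, and the white point (Fosl2 in monoculture) did not pass. The dashed line is the median of all genes tested and dotted lines mark 2-fold.

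The comparison of monoculture with coculture asks how each fraction differs between the culture conditions. In EpCAM+ cells Fos, Egr1 and Atf3 were lower and Fosl1 was higher in monoculture. Fos fell from 248 ± 1.42 to 123 ± 1.71 FPKM (SD, n = 2), a 2.02-fold difference (-1.01 in log2 units, SE 0.0196, adjusted p = 3.32e-08, limma). Fosl1 rose from 10.1 ± 0.255 to 22.0 ± 1.08, a 2.19-fold difference (1.06, SE 0.0384, adjusted p = 7.12e-07, limma). Atf3 fell 1.91-fold (-0.88, SE 0.06125) and Egr1 1.67-fold (-0.73, SE 0.0195). The remaining 6 genes changed by less: Fosb by -0.24, Jun by -0.21, Jund by -0.16, Ier2 by -0.14, Junb by 0.14 and Fosl2 by 0.29. By the ratio of Fos to Fosl1 FPKM within a library, coculture EpCAM+ stood at 24.3 and 25.0 and monoculture EpCAM+ at 5.84 and 5.34. In EpCAM- this ratio lay between 7.68 and 7.88 in all 4 libraries.

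All 10 genes passed in EpCAM+, 3 higher and 7 lower, beside 51.4% of all genes (16.4% higher and 34.9% lower). At 2-fold or more 2 passed, Fosl1 higher and Fos lower, beside 1.94% (0.266% higher and 1.67% lower). The median log2 fold change of the set was -0.19, against -0.06 over all genes. Fos stood close to the 2-fold limit, at -0.95 by the median of ratios, -0.99 with the share of EpCAM- levels subtracted and -0.99 without monoculture EpCAM+ replicate 2, each of which left Fosl1 as the single gene past it. Heat shock genes, whose members respond to stress of handling, had 6 of 11 higher and 4 lower in EpCAM+ of monoculture, with a median of 0.05. Their part in the values above was not tested.

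In EpCAM- cells Fosb, Atf3, Jun and Egr1 were lower and Ier2 higher in monoculture. Fosb fell 2.12-fold, from 101 ± 0.704 to 47.9 ± 0.205 FPKM (SD, n = 2; log2 fold change -1.07, SE 0.0203, adjusted p = 1.10e-08, limma). Atf3 fell 4.74-fold, from 4.76 ± 0.354 to 1.00 ± 0.0553 (-1.52, SE 0.06125, adjusted p = 4.42e-07, limma). Jun fell 1.58-fold (-0.65, SE 0.0266) and Egr1 1.49-fold (-0.57, SE 0.0195), while Ier2 rose 1.48-fold (0.56, SE 0.0304). Junb was -0.34, Fos -0.19 and Fosl1 -0.17, and Jund and Fosl2 were 0.15 and 0.12. All 10 genes passed, 3 higher and 7 lower, beside 62.7% of all genes (32.4% higher and 30.3% lower). At 2-fold or more 2 passed, Fosb and Atf3, both lower, beside 4.52% (2.56% higher and 1.96% lower). The median of the set was -0.26 and that of all genes 0.00. Fosl2 no longer passed without coculture EpCAM- replicate 2 (0.09, adjusted p = 0.0721, limma). Heat shock genes had 5 of 11 higher and 6 lower, with a median of -0.07 against 0.00 for all genes. Among the higher ones, Hspb1 was 27.8 ± 0.640 FPKM in coculture and 62.3 ± 1.20 in monoculture. The part of heat shock genes in the values of the 10 genes was not tested.

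The 2 culture comparisons share no library, so their difference could be tested as an interaction, the change in EpCAM+ minus that in EpCAM-. Egr1, Atf3, Fos, Fosb and Jun were lower in monoculture in both fractions, and Fosl2 was higher in both. Junb, Jund, Ier2 and Fosl1 went opposite ways in the fractions. The interaction passed for all 10 genes, 6 above 0 and 4 below, beside 65.2% of all genes (26.0% above and 39.2% below). A single gene, Fosl1, passed at 2-fold or more (1.22, SE 0.0543, adjusted p = 1.01e-06, limma), beside 8.09% (2.43% above and 5.66% below). Fosb (0.83, SE 0.0286) and Fos (-0.82, SE 0.0277) had interactions of like size and opposite sign: Fos fell more in EpCAM+ and Fosb more in EpCAM-. Ier2 stood at -0.70 (SE 0.0429), Atf3 at 0.64 (SE 0.0866), Junb at 0.48 and Jun at 0.43. The Atf3 value was 1.21 with a pseudocount of 0.1 in place of 1. Jund was -0.31, Fosl2 0.17 and Egr1 -0.16.

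The make-up of each family within a library does not depend on scaling between libraries. Of the summed FPKM of the Fos family, Fos took 68.8% ± 0.0727 in coculture EpCAM+ and 51.7% ± 0.378 in monoculture EpCAM+ (SD, n = 2), and 54.9% ± 0.0823 and 63.5% ± 0.31 in the same order in EpCAM-. Fosl1 took 2.79% ± 0.0577 in coculture EpCAM+ and 9.27% ± 0.515 in monoculture EpCAM+, against 7.00% ± 0.025 and 8.16% ± 0.107 in EpCAM-. Fosb took 32.4% ± 0.0738 in coculture EpCAM- and 20.2% ± 0.0832 in monoculture EpCAM-, and 24.3% ± 0.159 and 31.2% ± 0.239 in EpCAM+. The family summed to 359 to 362 FPKM in coculture EpCAM+ and to 311 to 313 in coculture EpCAM-. In monoculture the fractions overlapped, at 236 to 238 for both. The fractions of monoculture thus overlapped in the total, while their libraries did not overlap in the shares of Fos and Fosb.

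Within the Jun family, Junb was the largest share in every library, from 46.3% to 56.6%. Jund took 34.9% ± 0.886 in coculture EpCAM+ and 31.7% ± 0.409 in monoculture EpCAM+, against 18.1% ± 0.241 and 24.9% ± 0.649 in EpCAM-. Jun took 18.3% ± 0.23 and 16.0% ± 0.18 in EpCAM+ and 25.4% ± 0.0692 and 20.0% ± 0.0608 in EpCAM-. The family summed to between 419 and 429 FPKM in the 4 EpCAM+ libraries and to between 229 and 291 in the 4 EpCAM- libraries. With 2 libraries a group, the smallest p of an exact test is 0.333, so these shares are given without one.

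**Figure D3:**
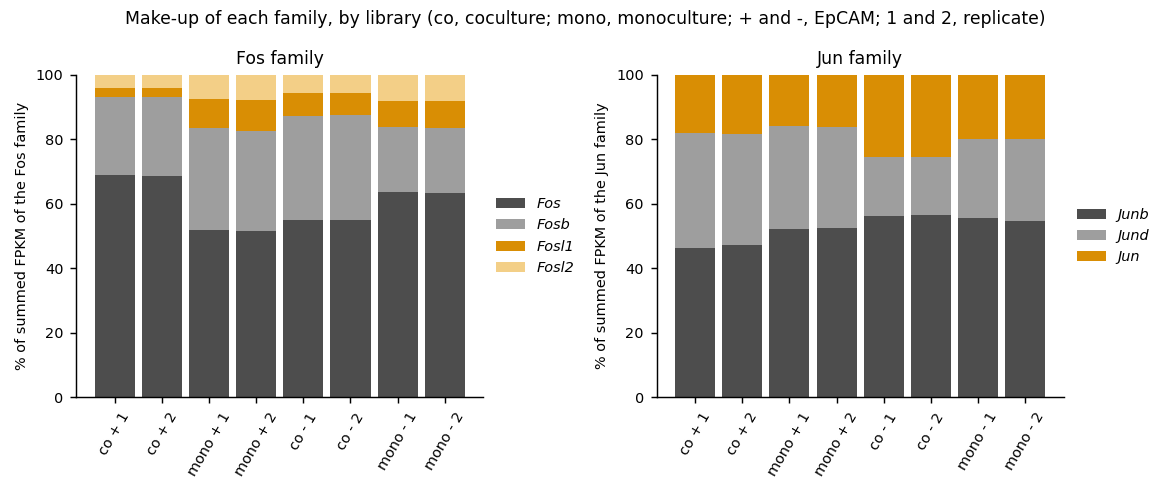
Share of each gene in the summed FPKM of the Fos family (left) and the Jun family (right), in percent, for each of the 8 libraries as a stacked bar. Fos is the largest part of its family in all 8 libraries and largest of all in coculture EpCAM+, and Jund is a larger part in the EpCAM+ libraries.

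Related genes were read from 7 lists, as counts of genes past an adjusted p of 0.05 (limma, over all genes tested). In what follows, levels are FPKM as mean ± SD (n = 2) and single values and medians are log2 fold changes. The counts read against the shares of all genes called: for EpCAM+ against EpCAM-, 59.2% higher and 28.0% lower in coculture, then 55.4% higher and 32.4% lower in monoculture. Between cultures these were 16.4% higher and 34.9% lower in EpCAM+ and 32.4% and 30.3% in EpCAM-. The medians of all genes were 0.26, 0.23, -0.06 and 0.00 in that order of comparisons. Other immediate early genes split between the fractions: of 26 tested, 12 were higher and 12 lower in EpCAM+ of coculture (median -0.09), and 14 higher and 10 lower in monoculture (median 0.29). Klf2, a zinc finger factor, was 5.30 ± 0.110 in EpCAM+ against 25.1 ± 1.65 in EpCAM- when cocultured. The monoculture levels were 4.91 ± 0.222 and 62.4 ± 1.59. Zfp36l1, which encodes an mRNA decay factor, was the other way, at 61.5 ± 1.66 and 7.65 ± 0.0884 in coculture. Ctgf, a secreted matricellular protein, was 121 ± 0.732 and 709 ± 0.614 in coculture. It rose to 266 ± 0.595 in EpCAM+ of monoculture (1.13, SE 0.018, adjusted p = 1.38e-08, limma). Between cultures the list had 12 higher and 9 lower in EpCAM+ (median -0.02) and 11 higher and 12 lower in EpCAM- (median -0.01). Klf4 was lower in EpCAM+ of monoculture (-1.02), Nfkbiz lower in EpCAM- (-1.50), and Nr4a1 higher in EpCAM- (1.01).

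Among other leucine zipper partners, 11 of 16 genes were higher and 4 lower in EpCAM+ of coculture, and 10 higher and 6 lower in monoculture (medians 0.39 and 0.39). These shares lay near those of all genes. Jdp2, a Jun partner that represses AP-1, was 13.0 ± 1.02 in EpCAM+ against 59.9 ± 0.204 in EpCAM- when cocultured, with 12.3 ± 0.382 against 69.1 ± 2.00 in monoculture. Atf5 was lower in EpCAM+ too, at -1.58 in coculture and -2.72 in monoculture.

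Of 18 upstream kinases, SRF and its cofactors, 7 were higher and 7 lower in EpCAM+ of coculture and 8 and 8 in monoculture, with medians of -0.05 and 0.10 against 0.26 and 0.23 for all genes. Rps6ka1, a kinase downstream of ERK, was 23.4 ± 0.293 in EpCAM+ against 0.387 ± 0.0898 in EpCAM- when cocultured, with 17.4 ± 0.462 against 0.270 ± 0.0502 in monoculture. Mkl1, a cofactor of SRF, was lower in EpCAM+ at -1.14 and -1.56. MAPK feedback genes, whose products dampen the pathway, were higher at 6 and lower at 5 of 15 in coculture (median 0.03, against 0.26 for all genes), and higher at 10 and lower at 4 in monoculture (median 0.84, against 0.23 for all genes). The ERK phosphatase Dusp6 was 59.5 ± 0.353 in EpCAM+ against 9.16 ± 0.593 in EpCAM- when cocultured, with 72.0 ± 1.82 against 7.76 ± 0.163 in monoculture. Dusp4 was higher in EpCAM+ at 2.10 and 2.31. Between cultures 8 of the 15 feedback genes were higher and 2 lower in EpCAM+ of monoculture (median 0.17, against -0.06 for all genes). In EpCAM- 5 were higher and 6 lower (median -0.01, against 0.00 for all genes). The ERK phosphatase Dusp5 rose in EpCAM+, from 16.3 ± 0.479 in coculture to 38.7 ± 0.728 in monoculture. It fell in EpCAM-, from 26.9 ± 0.597 to 11.2 ± 0.954.

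Textbook AP-1 target genes went both ways between the fractions, with 10 higher and 11 lower of 21 in coculture and 12 higher and 7 lower in monoculture (medians -0.97 and 0.51, against 0.26 and 0.23 for all genes). Lif, a cytokine of the IL-6 family, was 40.9 ± 0.945 in EpCAM+ against 1.56 ± 0.0232 in EpCAM- when cocultured. The integrin chain Itga5 was 8.13 ± 0.161 in EpCAM+ and 134 ± 0.816 in EpCAM- of monoculture. In EpCAM- cells 15 of the 21 targets were lower and 5 higher in monoculture (median -0.49, against 0.00 for all genes), among them the collagenase Mmp13, from 9.26 ± 0.744 to 0.0195 ± 0.00291, and the gelatinase Mmp9, from 7.52 ± 0.394 to 0.103 ± 0.00463. Nqo1, an antioxidant enzyme, was higher there (2.32). In EpCAM+ 9 were higher and 10 lower, with the growth factor gene Hbegf at 1.04.

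Of 12 stress genes of the ATF4 and ATF3 pathway, 8 were lower and 3 higher in EpCAM+ of coculture (median -0.48, against 0.26 for all genes). In monoculture 9 were lower and 3 higher (median -0.70, against 0.23). Ddit3, which encodes CHOP, was 10.0 ± 0.932 in EpCAM+ and 43.7 ± 1.62 in EpCAM- of monoculture. Ddit4 was an exception and higher in EpCAM+, at 1.56 and 1.73. In monoculture 9 were lower and 2 higher than in coculture in EpCAM+ (median -0.42), with Trib3 at -1.18, and 7 lower and 2 higher in EpCAM- (median -0.20). Heat shock genes were higher in EpCAM+ at 8 of 11 and lower at 1 in each culture (medians 0.41 and 0.66, against 0.26 and 0.23), where most of all genes called were higher as well, with Hspb1 at 2.65 and 1.47.

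**Figure D4:**
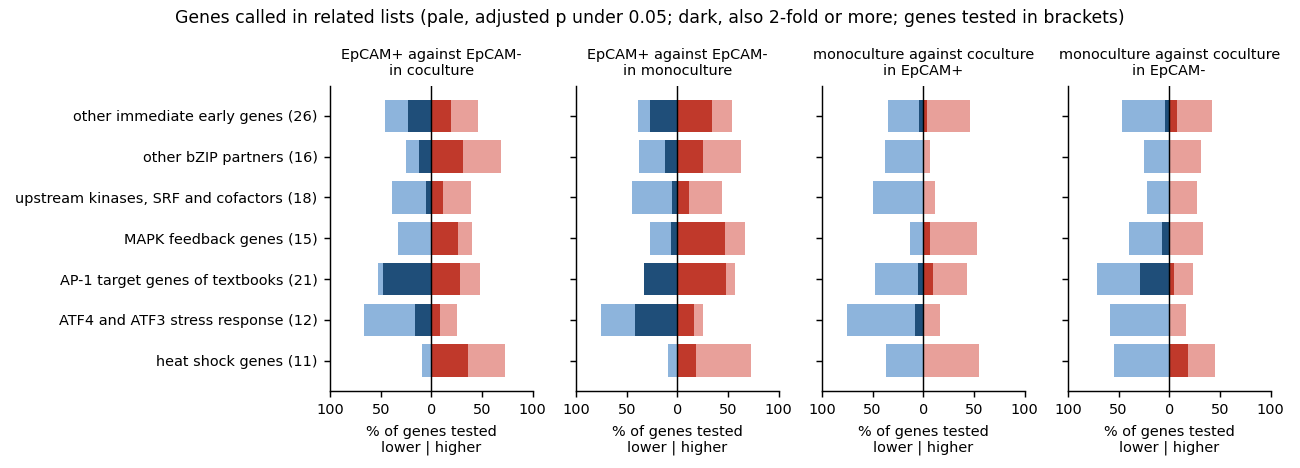
Percent of the genes tested in each of 7 related lists (rows, number tested in brackets) that were higher (red, right) or lower (blue, left) in the 4 comparisons; pale bars passed an adjusted p of 0.05 and dark bars also changed 2-fold or more. Between cultures in EpCAM-, the AP-1 target list has the longest dark bar to the left, with 6 of 21 genes.

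The genes whose levels followed each factor most closely were ranked by Pearson correlation of log2 values over the 8 libraries, among 8350 genes with a mean of at least 5 FPKM. The 8 points are 4 groups of 2, so this describes group patterns and carries no test. Fos was most like Stat3 (r = 0.982), Ciz1 and Wdr62 (0.971 for both). Fosl1 was most like Carhsp1 (0.990), Tmcc3 (0.985) and Angptl2 (0.984). For Fosl2 these were Cyr61 (0.968), Fam3c (0.967) and Nr2f2 (0.962). Fosb was most like Moxd1, Acly and Usp18 (0.992 to 0.993), and Jun like Bst2 (0.995), Chka and Pold1. Junb was most like Ebna1bp2, Ppid and Cct2 (0.9995, 0.9995 and 0.9987). Jund was closest to Zfp36l1, Midn and Esco1 (0.9996, 0.9996 and 0.9993), Egr1 to Ttc7, Scarb2 and Ppp1r15a (0.998, 0.998 and 0.996), Atf3 to Kif26b, Bcl3 and Gcn1l1 (0.999, 0.998 and 0.998), and Ier2 to Cetn3, Kif1c and Aktip (0.997, 0.996 and 0.995).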

How the data were processed

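RNA of 8 libraries was sequenced as 150 bp pairs, per the labels' protocols. FPKM values per gene were deposited by the authors, one table per library. Without roles, HISAT2, HTSeq, SAMtools, cutadapt, FastQC, edgeR and the build mm10 are listed, per the submitters' processing notes. Which tool made the FPKM, with which annotation and whether by strand, is not given in the sources used here.

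The 10 genes were matched by name, and genome positions are from GENCODE M21. Of 24421 genes, 12012 reached 1 FPKM in 2 libraries and were tested. limma 3.58.1 (R 4.3.3) was run on log2(FPKM + 1), with a mean for each of 4 groups and a moderated variance with a trend (4 residual degrees of freedom). P-values were adjusted by Benjamini-Hochberg over these 12012 genes, and 0.05 was the limit for a call. The script was tested on simulated data, in which far fewer genes were changed than were called in the real data. It found 50% to 62% of log2 changes of 0.25 and 90% to 94% of changes of 0.50. Of its calls, 3.85% to 7.49% were false, depending on the comparison. The share of the opposite fraction was the median ratio of its markers between fractions.

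Named were all 10 genes, from each related list up to 3 called genes at 2-fold or more per comparison with the largest change (the group with more RNA averaging 5 FPKM or above), and the 3 genes most alike to each of the 10; some genes that this rule names are not reported here. The genes and lists were chosen with earlier results of these data known. Alternatives covered the pseudocount, filter, scaling, variance model, replicate block, libraries in the fit, each library left out and the opposite fraction subtracted.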

Additional observations from a re-analysis of the deposited data

Results flagged for a closer look

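The change between cultures differed between the fractions for each of the 10 genes by the interaction term (change in EpCAM+ minus change in EpCAM-, log2 scale, limma), as it did for 65.2% of all genes tested. The value was -0.82 for Fos, 0.83 for Fosb, 1.22 for Fosl1 and 0.17 for Fosl2. It was 0.43 for Jun, 0.48 for Junb and -0.31 for Jund. Egr1 stood at -0.16, Atf3 at 0.64 and Ier2 at -0.70. The median over all genes was -0.08, so Egr1 lay closest to it.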

How the results depend on the processing

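Counts of called genes were 10, 9, 10, 10 and 10 in the order coculture, monoculture, EpCAM+, EpCAM- and interaction. Over the alternatives they ranged from 9 to 10, from 8 to 10, stayed at 10, from 9 to 10, and stayed at 10. Adding the replicate block left these at 10, 9, 10, 10 and 10, and the counts at 2-fold or more at 4, 3, 2, 2 and 1. Deviations between replicates 1 and 2 were little shared between groups, with correlations from -0.0971 to -0.0184. The labels do not say what a replicate number marks, so whether samples were paired is unknown. The count at 2-fold or more between cultures in EpCAM+ went from 2 to 1 by the median of ratios and with the opposite fraction subtracted, and ranged from 1 to 2 with a library left out (1 without monoculture EpCAM+ replicate 2). The interaction count went from 1 to 2 with a pseudocount of 0.1, where Atf3 joined Fosl1. The share of Fos in coculture EpCAM+ was 69.0% with the opposite fraction subtracted.

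Directions reversed for Jun in coculture (-0.0094 with equal library sums, -0.20 by the median of ratios, -0.023 by quantiles) and, by the median of ratios, for Fosl1 (-0.062) and Ier2 (-0.074) in monoculture. By the median of ratios the median of all genes moved by -0.26 in coculture and by -0.22 in monoculture. In coculture it moved by -0.086 with equal library sums and by -0.26 by quantiles. Which scaling is closest to the RNA content of the cells was not tested. Jun in coculture was not called without coculture EpCAM+ replicate 2 (adjusted p = 0.0732, limma), EpCAM- replicate 1 (0.0663) or EpCAM- replicate 2 (0.0523). Of the values of the 10 genes, 974 kept direction and call, 7 lost the call, 4 gained it and 5 reversed. Over all genes, the share of calls that were higher went from 67.9% to 49.8% in coculture, from 63.1% to 50.5% in monoculture and from 32.0% to 46.5% between cultures in EpCAM+ by the median of ratios, and from 39.9% to 53.4% for the interaction by quantiles. Genes at 2-fold or more rose with a pseudocount of 0.1 from 233 to 562 in EpCAM+, from 543 to 910 in EpCAM- and from 972 to 1613 for the interaction. Depth in reads is unknown, which limits statements on low genes such as Mmp13.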
